A study of Mus musculus with 6 samples.

Results

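A set of 10 genes of vascular guidance signalling was followed in cultured mouse lung endothelial cells exposed to hydrogen peroxide (H2O2), to ask how their RNA levels differed after exposure to an oxidant. They were the secreted semaphorins Sema3a, Sema3c, Sema3f and Sema3g, the membrane-bound semaphorin Sema6a, the semaphorin receptors Plxnd1 and Plxna2, the roundabout receptors Robo1 and Robo4, and the netrin receptor Unc5b. They were taken by symbol from a prepared list, and all 10 of 10 were found among the 33006 genes of the count tables. The cells were primary pulmonary endothelial cells of the C57BL/6 mouse strain, grown in an endothelial growth medium. Cells at 80% confluence received water (3 control libraries) or 300 uM H2O2 (3 H2O2 libraries), both for 6 hours. The sources used here give no genotype beyond the strain, no age of the animals and no word on pooling. They do not tie the replicate numbers to separate cultures or animals, so the p-values measure the spread between libraries, which may be technical.

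Guidance receptors let a growing vessel tip, like an axon, read attractive and repulsive cues. Class 3 semaphorins are secreted, bind neuropilins and signal through plexins, whose intracellular part inactivates small GTPases and weakens adhesion to the matrix. Slit proteins signal through Robo1, netrins and FLRT proteins through Unc5b, and the endothelial receptor Robo4 binds Unc5b. In endothelium these systems are known for their roles in vessel patterning and in the stability of the vessel wall.

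The bases before the RefSeq starts of Robo1 and Sema3a, which rose with H2O2, and of Unc5b, which fell, are shown so that the genes called with the smallest p-values can be seen beside their values. They are 250 bases each, 5′ to 3′ on the strand of the gene, from RefSeq (GRCm38.p6, the assembly of mm10), which held a start for 8 of the 10 genes. The windows of Robo1 and Sema3a lie inside the gene as GENCODE M21 spans it, downstream of its outermost start, and that of Unc5b lies directly before the gene. Whether these starts were the ones used in these cells was not tested. The windows lie at chr16:72662899-72663148 on the plus strand for Robo1, chr5:13396534-13396783 on the plus strand for Sema3a and chr10:60831582-60831831 on the minus strand for Unc5b, and no annotated exon of GENCODE M21 lies in them. Capitals mark GGAA, the core bound by ETS factors, on either strand.
Robo1: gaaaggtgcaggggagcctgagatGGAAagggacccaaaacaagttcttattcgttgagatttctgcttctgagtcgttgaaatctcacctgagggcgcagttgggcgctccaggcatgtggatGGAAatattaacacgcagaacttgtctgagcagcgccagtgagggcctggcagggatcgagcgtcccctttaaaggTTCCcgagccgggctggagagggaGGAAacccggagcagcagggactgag
Sema3a: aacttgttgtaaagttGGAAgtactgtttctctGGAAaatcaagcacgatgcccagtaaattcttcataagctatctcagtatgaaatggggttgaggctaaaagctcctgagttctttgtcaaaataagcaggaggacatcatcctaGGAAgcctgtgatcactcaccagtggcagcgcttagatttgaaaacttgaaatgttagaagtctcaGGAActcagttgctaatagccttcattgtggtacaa
Unc5b: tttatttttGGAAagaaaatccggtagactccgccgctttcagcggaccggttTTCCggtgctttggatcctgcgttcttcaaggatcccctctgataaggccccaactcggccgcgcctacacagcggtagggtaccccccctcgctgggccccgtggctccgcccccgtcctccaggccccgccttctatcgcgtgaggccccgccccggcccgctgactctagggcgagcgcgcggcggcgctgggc

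Robo1 and Sema3a each held 4 GGAA matches in this window, and Unc5b held 2. Among the other genes with a window, none of which passed, Plxnd1 held 5, Robo4 3, Sema3g 2, and Sema3c and Plxna2 0. The windows of Robo4, Sema3g, Sema3c and Plxna2 hold annotated exon bases of GENCODE M21, unlike those of Plxnd1 and the genes printed above. Sema3f and Sema6a, which rose, had no window. The letters are common: 93.4% of 32851 RefSeq windows of the same length held at least 1, with a median of 3. The GC box GGGCGG, bound by Sp1, was matched 2 times for Unc5b and 0 times for Robo1 and Sema3a, and 32.7% of windows held it. Sema3c held 3 matches, Plxna2 2, Plxnd1 and Sema3g 1 each, and Robo4 0. The AP-1 motif TGACTCA (4.46% of windows) had no match in any of the 3 windows, nor had TGACNNNGC, the core of the antioxidant response element (10.2% of windows). The window of Sema3g, which did not pass, held 1 TGACNNNGC match. All motifs were searched on both strands. A TGACTCA followed by GC would match both of the last 2 motifs, and a match describes letters only.

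With H2O2, 4 of the 10 genes rose (Robo1, Sema6a, Sema3a and Sema3f), 1 fell (Unc5b) and 5 did not pass the test. Across all 12924 genes tested by edgeR's quasi-likelihood test with an adjusted p threshold of 0.05, 9.70% were higher and 10.8% lower, or 20.5% in either direction. The 10 genes were chosen with earlier results of these data known, so these shares describe the group and do not test it. The H2O2 and control libraries did not overlap for 6 of the 10 genes, against 34.6% of all genes tested. The median log2 fold change was 0.07 over the 10 genes and -0.0041 over all genes tested. The 10 genes were more abundant than most, with a median of 79.5 CPM (normalised reads, scaled to a common depth) against 31.0 over all genes tested, and more abundant genes are measured more precisely. The rises numbered 2 in place of 4 without control replicate 3 and also without H2O2 replicate 1, where Sema3f and Sema6a did not pass. Over all genes, fewer passed in these fits as well, 1958 and 1826 in place of 2649. The group was thus made up of small changes, and the genes with the smallest p-values were Robo1, Unc5b and Sema3a.

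**Figure D1:**
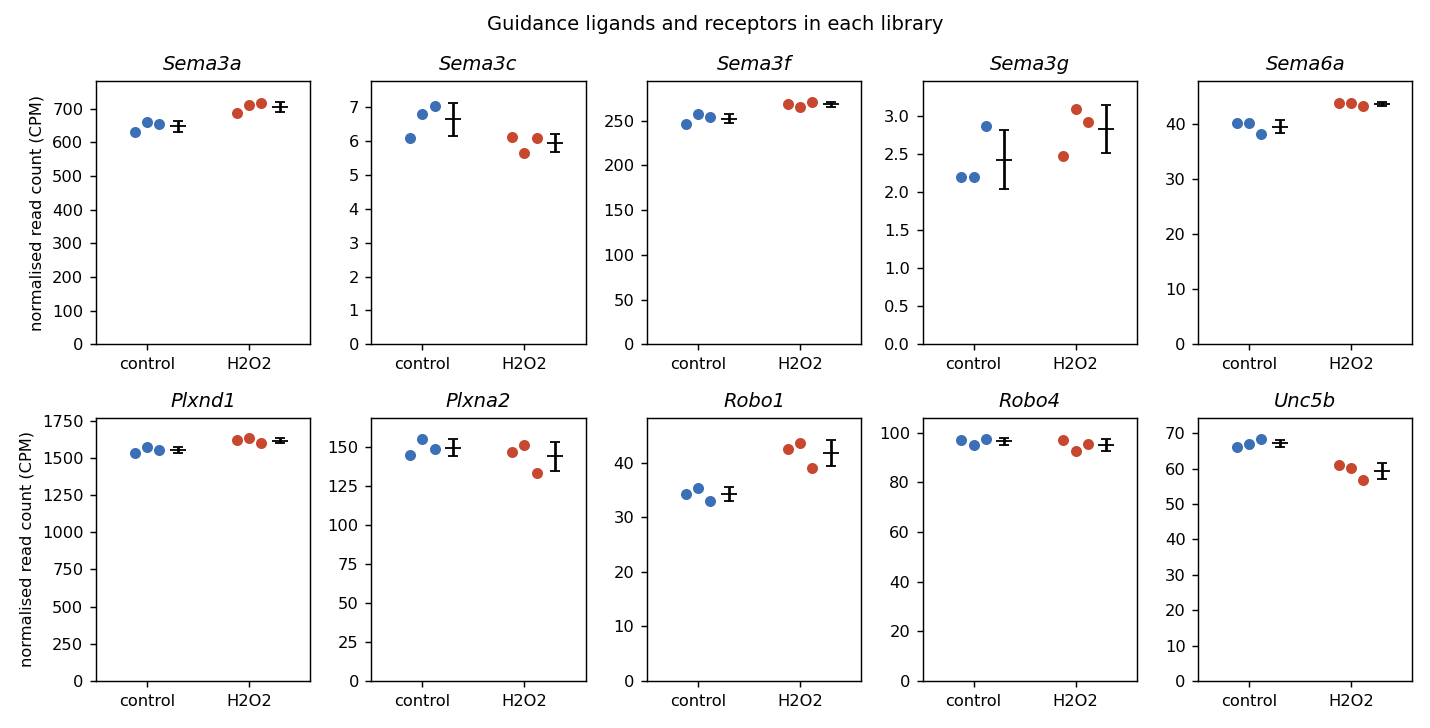
Normalised read count (CPM, linear axes from 0) of the 10 guidance genes in each library; points are libraries, the bar beside them is the mean ± SD of 3 libraries. The 2 groups stand apart for Sema3a, Sema3f, Sema6a, Plxnd1, Robo1 and Unc5b and overlap for the other 4 genes.

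Gene counts per library were 22455388 to 25626849 in controls and 26042296 to 27618679 with H2O2, so every H2O2 library was deeper than every control, and scaling factors ran from 0.993 to 1.01. The chi-square per gene between 2 libraries of a group, near 1 for counting error alone, was 1.64 to 2.96 among controls. It was 2.81 between H2O2 replicates 1 and 2, and 9.13 and 11.7 between these and H2O2 replicate 3. The cause was not tested. The libraries carried the endothelial label's markers, which summed to 4318 to 4404 CPM in controls and 4570 to 4598 CPM with H2O2. Of 10 endothelial markers 9 were tested, with 4 higher and 0 lower, while Cldn5 stayed under 1 CPM. The 4 were Emcn, Tek, Esam and Pecam1 (log2 0.24, 0.17, 0.11 and 0.10). The marker counts here are to be read beside the 9.70% higher and 10.8% lower of all genes tested. Lymphatic endothelial markers were present as well, at 2188 to 2243 CPM in controls and 2250 to 2294 CPM with H2O2. Most of this sum came from Lyve1, which did not pass. Of these 6 markers 3 were higher, Prox1, Flt4 and Mmrn1 (log2 0.35, 0.10 and 0.54), and Pdpn and Reln were under 1 CPM. Fibroblast markers summed to 27.0 to 28.8 CPM in controls and 24.9 to 27.98 CPM with H2O2 (Col1a2 and Tcf21 at 0), smooth muscle and pericyte markers to 5.74 to 6.84 and 5.69 to 6.81 CPM, and epithelial markers to at most 1.00 CPM (Krt8, Sftpc and Scgb1a1 at 0). Leukocyte markers reached 158 to 172 CPM through Cd68, with Cd3e at 0, and none of these 4 lists had a member that passed the test. Mesothelial markers summed to at most 0.558 CPM (Upk3b, Wt1 and Lrrn4 at 0). Of the markers of neurons and glia only Tubb3, a tubulin gene, was above 1 CPM, and it fell from 119 to 104 CPM. In bulk libraries, fewer cells of a type and less RNA per cell cannot be told apart. The part that the rises in 4 endothelial and 3 lymphatic markers have in the results below was not tested.

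Among the secreted ligands, Sema3a, which repels endothelial cells and axons through Nrp1 and plexins of class A, was the most abundant by read count. It stood at 629.7, 660.1 and 654 CPM in control replicates 1 to 3 and at 688, 710.3 and 716 CPM in H2O2 replicates 1 to 3. Every H2O2 library lay above every control. Sema3a rose by 8.81%, a log2 fold change of 0.12 (SE 0.0279, adjusted p = 2.25e-03), and passed in all 16 alternative fits. The gene lies on chromosome 5 (13125414 to 13602565, plus strand, mm10).

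Sema3f, a ligand of Nrp2 that restrains vessel growth, was at 247, 257 and 254 CPM in controls and at 268, 266 and 271 CPM with H2O2. The groups did not overlap, and the distance between them was small: the rise was 6.34%, or 0.09 on the log2 scale (SE 0.0292, adjusted p = 0.0306). Sema3f did not pass without control replicate 1 or 3 or without H2O2 replicate 1 or 3, with adjusted p up to 0.0999. It lies on chromosome 9 (107681500 to 107710475, minus strand).

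The other secreted ligands had the lowest read counts of the 10 genes and did not pass. Sema3c, which signals through Nrp1 or Nrp2 with Plxnd1, took 153 to 173 reads per library and stood at 6.10, 6.80 and 7.03 CPM in controls and 6.12, 5.65 and 6.09 CPM with H2O2. Control replicate 1 lay among the H2O2 libraries, and the log2 fold change was -0.16 (95% interval -0.37 to 0.06, adjusted p = 0.324). Its neighbour in level, Sema3g, a ligand known from arterial endothelium, took 55 to 85 reads, and its 2.19, 2.20 and 2.87 CPM in controls overlapped the 2.46, 3.08 and 2.92 CPM with H2O2. Its log2 fold change of 0.23 had a 95% interval from -0.12 to 0.58 (adjusted p = 0.374) and was not distinguishable from no change at this depth. Sema3c lies on chromosome 5 (17574281 to 17730268, plus strand) and Sema3g on chromosome 14 (31217860 to 31230352, plus strand).

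Sema6a, a membrane-bound semaphorin that binds Plxna2 and Plxna4 on neighbouring cells, was at 40.2, 40.1 and 38.1 CPM in controls and 43.7, 43.8 and 43.2 CPM with H2O2. The 3 H2O2 libraries lay close together and above all controls. It rose by 10.3%, or 0.14 on the log2 scale (SE 0.0450, adjusted p = 0.0249). It did not pass by DESeq2's test, without control replicate 2 or 3 or without H2O2 replicate 1 or 2, with adjusted p of 7.52e-03 to 0.123 over the 16 alternatives. The gene lies on chromosome 18 (47235598 to 47368870, minus strand).

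The ligands differed far more in level than in response. Per kilobase of annotated exon sequence, which allows levels of genes to be compared, Sema3f stood at 48.6 ± 1.01 and Sema3a at 46.7 ± 1.16 CPM per kilobase in controls, Sema6a at 4.50 ± 0.136, Sema3c at 0.930 ± 0.0679 and Sema3g at 0.533 ± 0.0853 (mean ± SD, n = 3). The library ranges of Sema3f and Sema3a overlapped, and with the length of the longest transcript Sema3a came first, at 109 against 74.4 CPM per kilobase. Of the summed level of all 7 class 3 semaphorins in controls, Sema3a made up 46.1% ± 0.0870 and Sema3f 47.9% ± 0.152, or 57.0% and 38.8% with the longest transcripts. With H2O2 these shares were 46.8% ± 0.482 and 47.5% ± 0.509, and their difference was not tested. Over all 20 semaphorins, Sema3a and Sema3f took 23.4% and 24.3% of the summed level in controls, and Sema4c (16.6%) and Sema6b (14.8%), both membrane-bound, came next. With the longest transcripts Sema3a took 35.3% and Sema3f 24.002%.

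**Figure D2:**
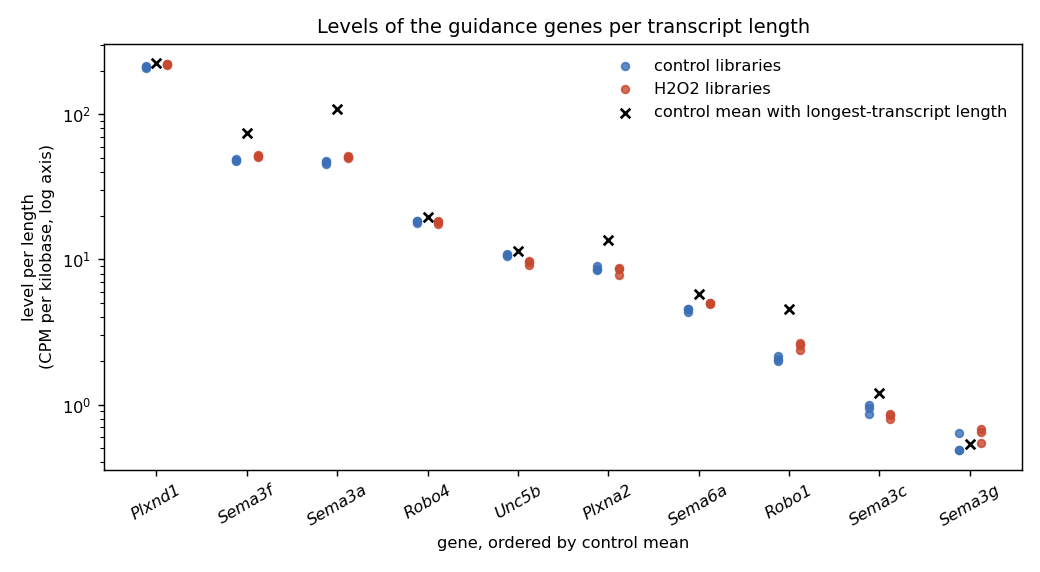
Level per length (CPM per kilobase of exon sequence, log axis) of the 10 genes in each control and H2O2 library, with crosses for the control mean on the length of the longest transcript. Plxnd1 stands highest at 213 and Sema3g lowest at 0.533 CPM per kilobase in controls, and the shift between groups is small beside the spread between genes.

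Among the receptors, Plxnd1, the endothelial plexin that binds Sema3e directly and other class 3 semaphorins with neuropilins, was by far the most abundant. It was at 1532, 1571 and 1554 CPM in controls and 1619.8, 1630.5 and 1597 CPM with H2O2. All H2O2 libraries lay above all controls, yet the difference of 4.10% (log2 0.06, 95% interval 0.0036 to 0.11) did not pass after adjustment (adjusted p = 0.130). It passed by DESeq2's test and after a correction for GC content and transcript length, where it was 0.08, with adjusted p of 0.0177 to 0.264 over the 16 alternatives. Plxnd1 lies on chromosome 6 (115954811 to 115995005, minus strand).

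Plxna2, a receptor for Sema6a and, with neuropilins, for class 3 semaphorins, was at 144, 155 and 149 CPM in controls and 147, 151 and 133 CPM with H2O2. The groups overlapped, and H2O2 replicate 3 was the lowest of the 6 libraries. The log2 fold change was -0.06 (95% interval -0.14 to 0.02, adjusted p = 0.354), and without H2O2 replicate 3 it was -0.0046 (adjusted p = 0.953). Plxna2 lies on chromosome 1 (194618218 to 194816869, plus strand).

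The plexins were compared within libraries. In each library the reads of Plxna2 were set against those of Plxnd1, a ratio that no scaling factor touches. Plxna2 took 9.43%, 9.86% and 9.57% as many reads as Plxnd1 in controls and 9.06%, 9.27% and 8.34% with H2O2. The ratio was lower in 3 of 3 H2O2 libraries, by 0.12 on the log2 scale. An exact two-sided permutation test gave p = 0.10, the smallest that 3 against 3 libraries can give. Without H2O2 replicate 3 the ratio was lower by 0.07 (exact two-sided permutation test, p = 0.2). The exact two-sided permutation test also gave p = 0.2 without control replicate 1, 2 or 3, and p = 0.1 without H2O2 replicate 1 or 2. Per length, Plxnd1 made up 70.4% ± 0.446 of the level of all 9 plexins in controls and 72.6% ± 0.298 with H2O2, and Plxna2 2.88% ± 0.0622 and 2.74% ± 0.147 (mean ± SD, n = 3). With the longest transcripts the shares were 67.8% in controls and 70.1% with H2O2 for Plxnd1, and 4.08% and 3.90% for Plxna2. The differences in share between the groups were not tested.

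Robo1, the Slit receptor, showed the largest of the 4 rises. It was at 34.2, 35.5 and 32.9 CPM in controls and 42.5, 43.7 and 39.1 CPM with H2O2, with no overlap between the groups. The rise was 21.99%, or 0.29 on the log2 scale (SE 0.0510, adjusted p = 1.59e-04), and it passed in all 16 alternative fits at 0.26 to 0.33. Over all genes that passed, the median size of change was 13.2%. Of the 1254 genes higher with H2O2, 313 rose by at least as much as Robo1, itself included. Robo1 lies on chromosome 16 (72308306 to 73046095, plus strand).

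Robo4, a receptor found mainly on endothelium and known for keeping vessels stable, gave 97.2, 94.99 and 97.4 CPM in controls and 97.1, 92.5 and 95.4 CPM with H2O2. The groups overlapped and the log2 fold change was -0.02 (95% interval -0.10 to 0.05, adjusted p = 0.708). After the correction for GC content and length its sign turned, to 0.0202. Robo4 lies on chromosome 9 (37401897 to 37415115, plus strand).

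The Robo receptors were compared within libraries in the same way. Robo1 took 35.2%, 37.3% and 33.8% as many reads as Robo4 in controls and 43.8%, 47.2% and 41.0% with H2O2. The ratio was higher in 3 of 3 H2O2 libraries, by 0.31 on the log2 scale, and stayed between 0.26 and 0.36 without any 1 library (exact two-sided permutation test, p = 0.10, the smallest possible). Per length, Robo4 made up 87.9% ± 0.492 of the level of the 4 Robo genes in controls and 85.6% ± 0.874 with H2O2, and Robo1 10.003% ± 0.461 and 12.1% ± 0.743 (mean ± SD, n = 3). With the longest transcripts the share of Robo1 was 18.4% in controls and 21.8% with H2O2.

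Unc5b, the netrin receptor of endothelium, was the one gene of the 10 that passed as lower. It was at 66.1, 66.9 and 68.3 CPM in controls and 61.0, 60.2 and 56.9 CPM with H2O2, with every H2O2 library below every control. The level decreased by 11.5%, a log2 fold change of -0.18 (SE 0.0403, adjusted p = 2.17e-03), and passed in all 16 alternative fits at -0.19 to -0.14. Its relative Unc5a, also a netrin receptor, was at 0.07 and did not pass (adjusted p = 0.391). Of the summed level per length of the 4 Unc5 genes, Unc5b took 59.2% ± 1.52 in controls and 54.9% ± 1.52 with H2O2, and Unc5a took 40.7% ± 1.52 and 45.03% ± 1.49. Unc5b lies on chromosome 10 (60762593 to 60831581, minus strand).

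**Figure D3:**
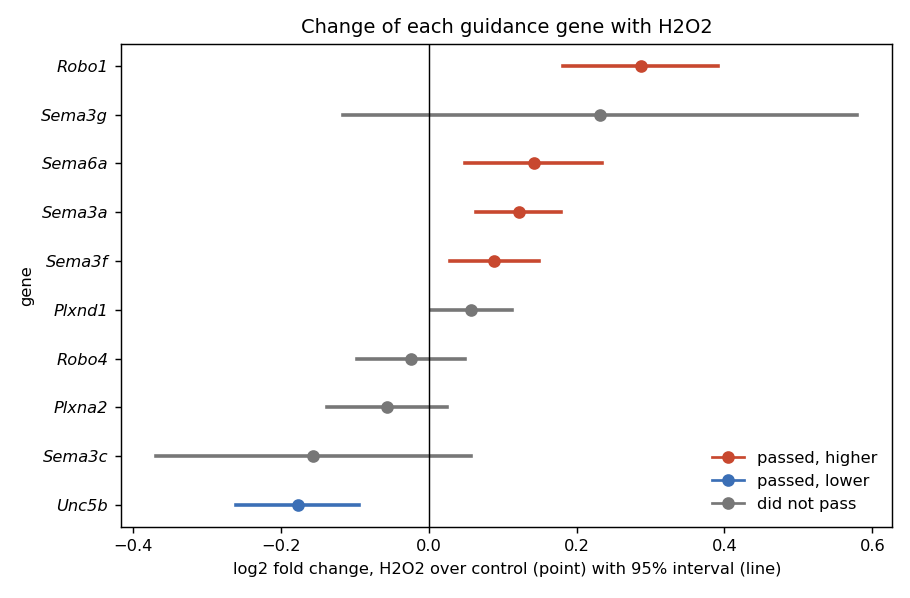
Log2 fold change of H2O2 over control for each of the 10 genes (point) with its unadjusted 95% interval (line), from edgeR's quasi-likelihood fit. Robo1, Sema6a, Sema3a and Sema3f passed as higher and Unc5b as lower, and the widest intervals are those of the weakly expressed Sema3g and Sema3c.

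In the order of levels per length among receptors, Plxnd1 (213 ± 2.70 CPM per kilobase in controls) came before Robo4 (18.2 ± 0.256), Unc5b (10.7 ± 0.178), Plxna2 (8.70 ± 0.307) and Robo1 (2.07 ± 0.0770; mean ± SD, n = 3). No neighbours in this order overlapped between libraries. With the longest transcripts Plxna2 (13.5) came before Unc5b (11.4), and Robo1 stood at 4.52 CPM per kilobase. No annotated exon of another gene on either strand covers any exon base of the 10 genes in GENCODE M21.

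The rest of the guidance machinery was followed in 79 genes in 7 lists. Of the 70 tested, 9 rose and 10 fell, against the 9.70% and 10.8% of all genes, and their median log2 fold change was 0.01. The counts of each list below are to be read beside these same shares. These lists, too, were chosen with earlier results of these data known. Among the 70, the rises numbered 5 without control replicate 2, and the falls numbered 5 without control replicate 3 and without H2O2 replicate 1. Over all genes, 1861, 1958 and 1826 passed in these fits, in that order, in place of 2649. After the correction for GC content and length, 11 were higher and 8 lower.

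**Figure D4:**
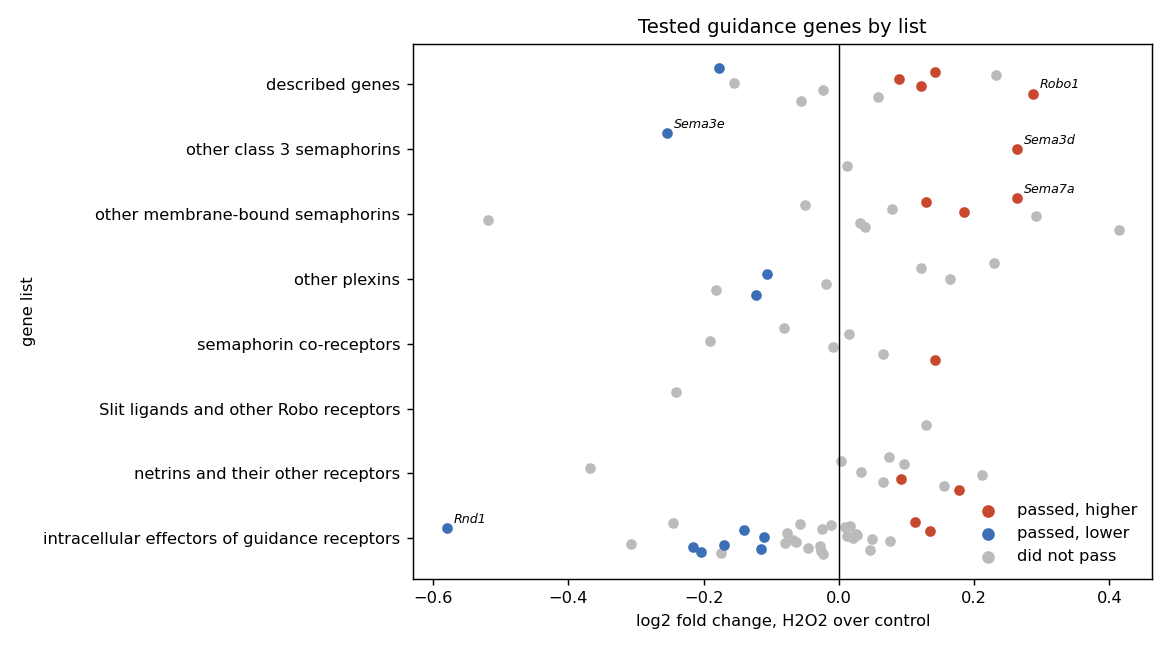
Log2 fold change of H2O2 over control for each tested guidance gene, by list; each point is 1 gene, coloured by whether it passed edgeR's test, and genes that passed with a change of over 0.24 in size are named. Rnd1 stands lowest at -0.58 and Robo1 highest among genes that passed, at 0.29.

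Of the other class 3 semaphorins, 1 rose, 1 fell and 1 did not pass. Sema3d, the most abundant of them per length, rose from 18.5 ± 0.816 to 22.2 ± 0.684 CPM (log2 0.26, adjusted p = 3.09e-03). Sema3e, the ligand that binds Plxnd1 without a neuropilin, fell from 14.5 ± 0.116 to 12.1 ± 1.24 CPM (log2 -0.25, adjusted p = 0.0213; mean ± SD, n = 3). Sema3e did not pass by DESeq2's test, without control replicate 2 or 3 and without H2O2 replicate 1. Sema3b (0.01) did not pass.

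Of 12 other membrane-bound semaphorins, 10 were tested, and 3 rose and 0 fell, with a median of 0.10. Of all genes tested, 9.70% were higher and 10.8% lower. Sema7a, which is anchored in the membrane by a lipid, rose by 0.26 (adjusted p = 4.75e-04), Sema6d, a ligand of Plxna1, by 0.13 (adjusted p = 0.0194) and Sema5a by 0.19 (adjusted p = 0.0497). Sema5a did not pass in any of the 6 fits that left out 1 library, by DESeq2's test, by limma-voom, without the filter on low counts, with the replicate block or after the correction for GC content and length. Sema6d did not pass without control replicate 2 or H2O2 replicate 1 or 2. Sema4c, the most abundant of the list at 33.2 CPM per kilobase in controls, stood at 0.03 and did not pass. Of the 7 other plexins, 0 rose and 2 fell: Plxnb2, the most abundant of them and a receptor for class 4 semaphorins, by 0.11 (adjusted p = 0.0107), and Plxna1 by 0.12 (adjusted p = 0.0214). Plxna4, the other receptor of Sema6a, was at -0.02 and did not pass. Plxnb2 did not pass after the correction for GC content and length alone, but passed as lower when the replicate block was added to it. Plxnb2 also did not pass in fits leaving out control replicate 2, control replicate 3 or H2O2 replicate 1. Plxna1 did not pass without control replicate 3 or H2O2 replicate 1 or 3. For Plxna1, 10.7% of exon bases are shared with an antisense neighbour.

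Neither neuropilin, the ligand-binding co-receptors of Sema3a and Sema3f, passed. Nrp1 gave 246 ± 5.62 CPM (control) and 249 ± 6.59 CPM (H2O2; log2 0.01, adjusted p = 0.799), and Nrp2 gave 372 ± 14.0 and 351 ± 17.96 CPM (log2 -0.08, adjusted p = 0.0979; mean ± SD, n = 3). Nrp2 passed as lower without control replicate 1 and without H2O2 replicate 2. Of the 6 co-receptors, 1 rose, the integrin subunit Itgb1 (log2 0.14, adjusted p = 2.95e-04), which was also the most abundant of them per length.

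Slit genes, which encode the ligands of Robo1, had low counts in these cells. Slit2 was measured at 3.80 ± 0.352 CPM (control) and 3.20 ± 0.621 CPM (H2O2; mean ± SD, n = 3) and did not pass (log2 -0.24, adjusted p = 0.290), and Slit3 had 0 reads in all 6 libraries, which allows at most 0.109 to 0.134 CPM per library, taking 3 counts as the limit and counting error only. Slit1 and Robo2 were too low to test, and Robo3, the most abundant of this list per length, did not pass (0.13). In the list of 14 netrins and partners, 10 were tested, and 2 rose and 0 fell, against 9.70% and 10.8% of all genes. Flrt2, a membrane protein that binds Unc5 receptors, rose by 0.18 (adjusted p = 2.57e-03) and the ligand Ntn1 by 0.09 (adjusted p = 0.0467), while Ntn4 (0.03), Flrt3 (0.16) and the most abundant member per length, the receptor Neo1 (0.07), did not pass. Neo1 passed as higher without H2O2 replicate 3 and after the correction for GC content and length. Ntn1 did not pass by DESeq2's test, without control replicate 1, 2 or 3 and without H2O2 replicate 1.

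Among 32 intracellular effectors of these receptors, all tested, 2 rose and 7 fell, against 9.70% and 10.8% of all genes. Their median was -0.04. Rnd1, a small GTPase that binds the intracellular part of plexins, fell from 40.9 ± 1.24 to 27.3 ± 2.33 CPM (log2 -0.58, SE 0.0560, adjusted p = 1.62e-08; mean ± SD, n = 3). Dpysl3, a collapsin response mediator protein that binds the cytoskeleton, fell by 0.22 (adjusted p = 2.40e-04). It was at 459, 477 and 473 CPM in controls and 419, 430 and 365 CPM with H2O2, lowest in H2O2 replicate 3. Farp1, an exchange factor with a FERM domain, fell by 0.17 (adjusted p = 9.25e-04). Rac1, the GTPase that drives membrane protrusion, rose by 0.14 (adjusted p = 9.89e-04), although 51.4% of its exon bases are shared with an antisense neighbour. Without a stated strand setting, it is not known whether reads over these bases were counted or left out as ambiguous. Cdc42, the most abundant of the list per length, was at 0.05 and did not pass.

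**Figure D5:**
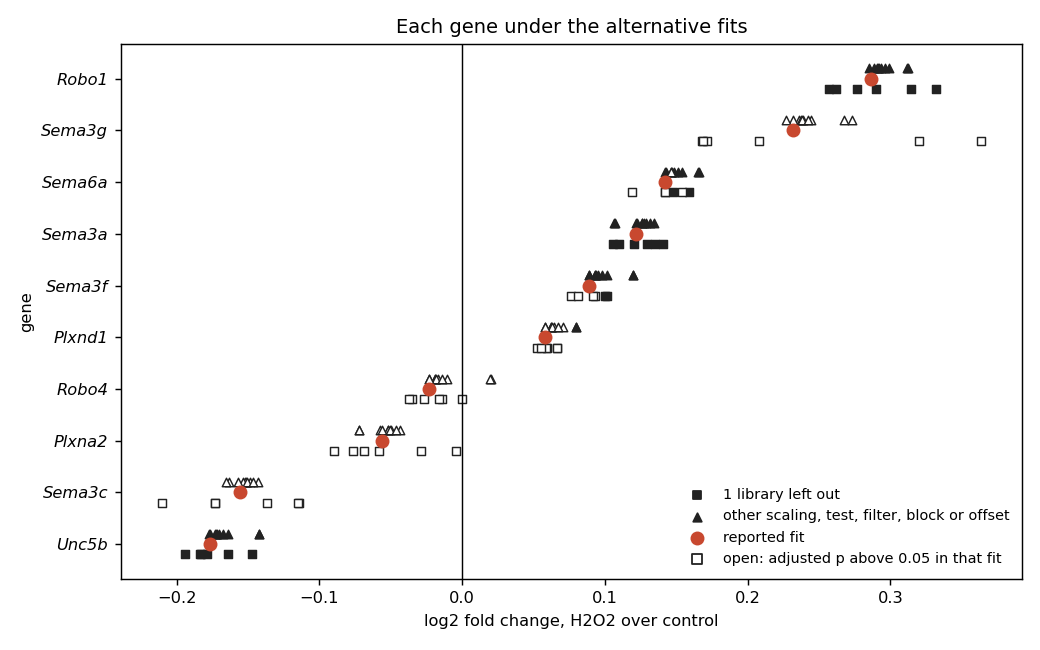
Log2 fold change of each of the 10 genes in the reported fit (large points), in fits without 1 library (squares) and with another scaling, test, filter, block or offset (triangles); open marks have an adjusted p above 0.05 in that fit. All marks of Robo1, Sema3a and Unc5b are filled, whereas Sema3f and Sema6a have open marks among the fits without 1 library.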

How the data were processed

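Each library has a table of raw counts per gene, deposited by the authors. Per the submitters' processing notes the tools were STAR 2.5.3, HTSeq, cutadapt, bcl2fastq 2.17.1.14 and DESeq2, and the build was mm10. Which annotation and strand setting HTSeq used is not given in the sources used here. The 5 HTSeq summary classes were left out, of which reads without a feature were 4.76% to 5.46%, ambiguous reads 3.17% to 3.30% and reads aligned to several places 11.0% to 11.7% of each library.

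All 12924 genes that passed filterByExpr were tested in 1 fit across all genes with the quasi-likelihood test of edgeR 4.0.16 under R 4.3.3 (limma 3.58.1), using TMM factors, treatment as the only term and Benjamini-Hochberg adjustment at 0.05. Log2 fold changes are H2O2 over control, SE is the standard error and 95% intervals are unadjusted. CPM are counts scaled with TMM factors, and levels per length divide them by the exon bases in GENCODE M21, found for 94.6% of tested genes. Read ratios were compared by exact permutation. The scripts were tested on simulated data.

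The 10 genes, the 7 further lists and the marker lists were chosen with earlier results of these data known. All 10 genes are described. From each further list were named up to 4 passing genes with the smallest p, the most abundant gene per length, and partners of the 10 genes. Alternatives were other scaling factors, DESeq2 1.42.0, limma-voom, other filters, the replicate number as a block, a correction for GC content and transcript length by a per-library loess offset (span 0.3), and fits without each library.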

Additional observations from a re-analysis of the deposited data

How the results depend on the processing

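Robo1, Sema3a and Unc5b kept their direction and passed in all 16 alternative fits, and Sema3c, Sema3g, Plxna2 and Robo4 passed in none. Robo4, at -0.02, turned to 0.0202 after the correction for GC content and length and to 0.0198 when the replicate block was added to it. The members higher with H2O2 numbered 2 to 3 in fits without 1 library, in place of 4 (2 without control replicate 3 and without H2O2 replicate 1), and 4 to 5 in the other fits, with 1 member lower in each fit. Over all genes, 1826 to 2490 passed in fits without 1 library, in place of 2649. By DESeq2's test the 4 higher genes included Plxnd1 and not Sema6a. Of the further guidance genes, 5 to 10 were higher and 5 to 10 lower in fits without 1 library, in place of 9 and 10. DESeq2's test gave 7 and 8, the correction for GC content and length 11 and 8, and 11 and 9 with the block added, and the other fits gave 8 to 10 and 10. Sema5a, with an adjusted p of 0.0497, kept its call under other scaling factors and a stricter filter, and in none of the other alternatives. The log2 ratio of Robo1 to Robo4 ran from 0.26 to 0.36 and that of Plxna2 to Plxnd1 from -0.15 to -0.07 without 1 library. The cause of these shifts was not tested.

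Same-numbered libraries did not deviate together, with correlations of 0.0070, 0.031 and -0.019 over genes, so the number was not taken as a pairing. With the replicate block, 4 members were higher and 1 lower, and 8 and 10 of the further genes, and the paired ratio tests gave p = 0.25, the smallest that 3 pairs allow in an exact test. With the longest transcript as length, the level of 9 of 10 genes moved by more than the spread between libraries and 4 changed rank. Sema3g and Sema3c, with 55 to 85 and 153 to 173 reads per library, had the widest intervals of the 10 genes.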
